A study of Mus musculus with 9 samples.

Results

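Phlda2, Mpp3 and R3hdml are 3 of the 23951 genes measured by RNA sequencing in crypts of the mouse jejunum. They were chosen by their measured FPKM, a read level scaled to transcript length and library size: from about 1 FPKM or less in control crypts, they were among the genes with the largest increase in double mutants. The double mutants carried floxed Smad4 alleles, 1 allele of Ctnnb1 with a floxed exon 3 (Ex3f/+) together with Villin-CreER(T2), which drives a recombinase in the intestinal epithelium that tamoxifen activates, and were given tamoxifen on 4 days in a row (Smad4f/f; Ex3f/+;Villin-CreER(T2)). The Smad4 KO mice (Smad4f/f;Villin-CreER(T2)) had the same tamoxifen course. Both were collected 1 day after it. The control mice are labelled only as control, with vehicle as their treatment, while the design text calls them uninjected. Tamoxifen and the recombinase therefore cannot be told apart from genotype. Each group had 3 libraries, numbered 0 to 2, and the labels do not say that each came from a separate mouse, so p-values measure the spread between these libraries.

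Phlda2 encodes a small protein made mostly of a pleckstrin homology-like domain. It is an imprinted gene, expressed from the maternal allele, best known for restraining growth of the placenta. Mpp3 encodes a membrane-associated guanylate kinase (MAGUK), a family of scaffold proteins that hold complexes together at cell junctions. R3hdml belongs by sequence to the CAP superfamily of mostly secreted proteins, and little is known of its function. Smad4 carries BMP and TGF-beta signals to the nucleus with receptor-activated SMADs, and loss of exon 3 of Ctnnb1 stabilises beta-catenin, the effector of Wnt signalling.

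Mpp3 had no entry in the promoter set used, so its promoter is not shown. The promoters of Phlda2 and R3hdml are shown so that the letters before the start of these 2 genes can be read side by side. They are the RefSeq sequences of build GRCm38.p6, from 250 bases before to 50 bases after the start, 5′ to 3′. The expression tables were made on build mm9. The Phlda2 window is on the minus strand at chr7:143502475-143502774 and the R3hdml window on the plus strand at chr2:163492068-163492367. Capitals mark the motif matches described next.
Phlda2: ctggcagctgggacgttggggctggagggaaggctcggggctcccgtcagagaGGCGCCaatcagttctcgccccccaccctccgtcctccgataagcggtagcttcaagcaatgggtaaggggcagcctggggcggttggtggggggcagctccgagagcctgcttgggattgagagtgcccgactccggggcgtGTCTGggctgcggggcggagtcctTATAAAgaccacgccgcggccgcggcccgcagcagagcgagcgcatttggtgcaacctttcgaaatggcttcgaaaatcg
R3hdml: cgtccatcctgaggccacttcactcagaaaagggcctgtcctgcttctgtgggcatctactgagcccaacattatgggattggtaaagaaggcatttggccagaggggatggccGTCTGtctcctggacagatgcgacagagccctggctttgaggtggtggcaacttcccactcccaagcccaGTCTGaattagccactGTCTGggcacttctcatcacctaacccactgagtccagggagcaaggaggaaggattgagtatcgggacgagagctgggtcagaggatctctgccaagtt

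The letters searched, on both strands, were CTTTGAT and CTTTGTT for TCF/LEF factors, CAGAC, GTCTAGAC and GGCGCC for SMADs, TGACTCA for AP-1, the E-box CACGTG and the TATA letters TATAAA. The marked matches do not overlap each other. The R3hdml promoter had 3 matches to CAGAC, seen as GTCTG in the printed strand and beginning 136, 66 and 50 bases before the start. The Phlda2 promoter had 1 match to CAGAC at 54 bases, 1 to GGCGCC at 197 bases and 1 to TATAAA at 30 bases before the start. Of 32851 promoters of this length, 49.6% held CAGAC at least once, 11.9% GGCGCC and 13.6% TATAAA. How many held CAGAC 3 times was not counted, so whether 3 matches are unusual is not known. Neither window held CTTTGAT or CTTTGTT, which were in 3.73% and 5.85% of promoters, nor GTCTAGAC (0.213%), TGACTCA (5.2%) or CACGTG (7.15%). The Phlda2 window was 65.7% G or C with 26 CG dinucleotides, and the R3hdml window 55.3% with 5, against a median of 52.7% G or C over all promoters.

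Smad4 itself fell in both mutant groups, to 10.4 ± 0.64 FPKM in double mutants against 52 ± 5.96 in their controls, and to 10.6 ± 0.56 in Smad4 KO against 49.8 ± 5.02 (SD, n = 3 each; limma adjusted p = 0.00176 and 0.00664). The 2 mutant groups stand in separate tables with the same 3 control libraries, each scaled on its own. Between the tables each control differed by 1 factor, 1.03 to 1.06, and group values below come from the group's own table unless stated. Summed FPKM was 568081 to 758719 per library. FPKM holds no read numbers, so the depth behind a value is unknown. In bulk crypts, a change in the share of a cell type and a change in RNA per cell cannot be told apart.

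Phlda2 was high in every mutant library and close to 1 FPKM in every control. It had 9.86, 10.2 and 6.92 FPKM in double mutants 0, 1 and 2, against 1.39, 1.3 and 1 FPKM in controls 0, 1 and 2. In Smad4 KO it had 14.5, 5.99 and 3.97 FPKM, against 1.35, 1.22 and 0.961 FPKM in the controls of that table. Neither mutant group overlapped the controls, and the highest library of all was Smad4 KO 0. The ratio of means was 7.31 in double mutants and 6.93 in Smad4 KO, or 4.22 in Smad4 KO without replicate 0. In rank, 69.6% of all genes had a lower mean FPKM than Phlda2 in double mutants and 68.1% in Smad4 KO, against 52.5% in controls.

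Mpp3 had the most even levels among the mutants. It had 9, 6.99 and 7.3 FPKM in double mutants 0, 1 and 2, against 1.59, 0.394 and 0.748 FPKM in controls 0, 1 and 2. In Smad4 KO it had 5.97, 4.33 and 5.69 FPKM, against 1.54, 0.372 and 0.717 FPKM in controls. Again no mutant library overlapped the controls. The coefficient of variation was 14% in double mutants and 16.5% in Smad4 KO, while in the controls it was 67.6% and 68.7%, with control 0 above the others. The ratio of means was 8.51 in double mutants and 6.07 in Smad4 KO, and without control 0 it was 13.6 and 9.79. In rank, 67.5% of genes had a lower mean than Mpp3 in double mutants and 62.8% in Smad4 KO, against 50.9% in controls.

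R3hdml had the lowest levels in controls and the largest ratios. It had 6.05, 5.07 and 3.98 FPKM in double mutants 0, 1 and 2, against 0.453, 0.268 and 0.26 FPKM in controls 0, 1 and 2. In Smad4 KO it had 9.56, 1.59 and 4.15 FPKM, against 0.439, 0.253 and 0.25 FPKM in controls. All mutant libraries lay above all controls, and the Smad4 KO libraries spread over a wider range than the double mutants. Its coefficient of variation was 79.8% in Smad4 KO and 20.5% in double mutants. The ratio of means was 15.4 in double mutants and 16.2 in Smad4 KO, or 9.13 in Smad4 KO without replicate 0. In rank, 62.5% of genes had a lower mean than R3hdml in double mutants and 62.3% in Smad4 KO, against 45.8% in controls.

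**Figure D1:**
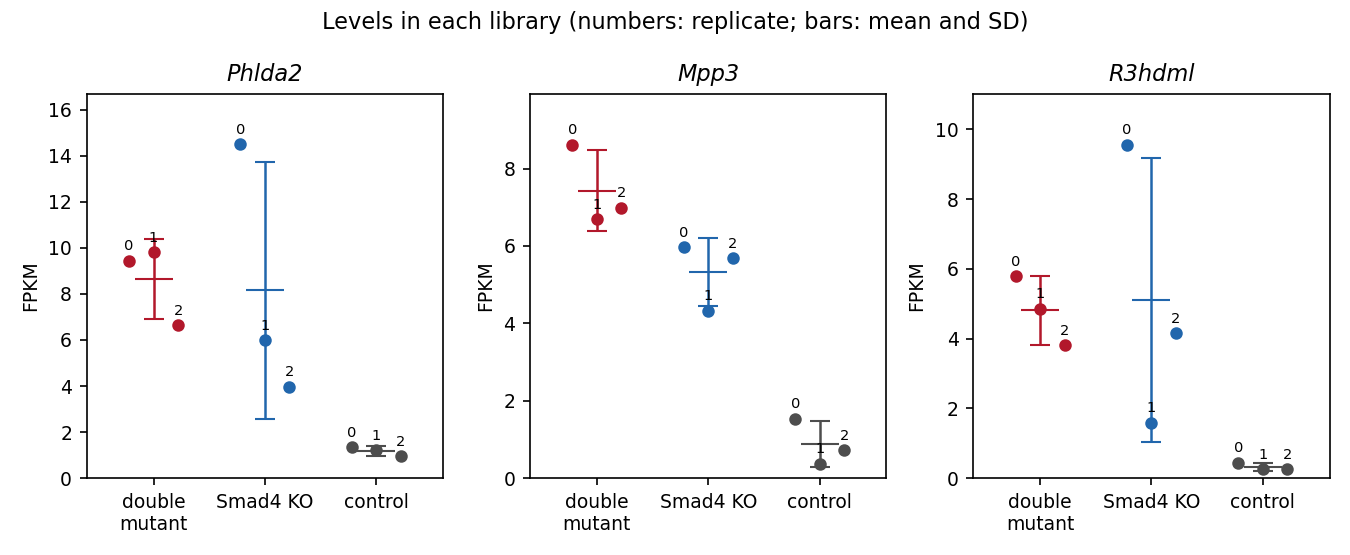
FPKM (linear axis) of Phlda2, Mpp3 and R3hdml in each library of the double mutant, Smad4 KO and control groups; points are libraries with their replicate number, and bars are the mean and SD of 3 libraries. Double mutants were put on the scale of the Smad4 KO table by the shared controls; every mutant point lies above every control point, and Smad4 KO 0 is the highest library for Phlda2 (14.5) and R3hdml (9.56) but not for Mpp3 (5.97).

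The double mutant values decided the choice, so the increase there is a description and was not tested. On the log2(FPKM + 1) scale, which understates changes of low genes, it was 2.24 for Mpp3, 2.17 for R3hdml and 2.15 for Phlda2. All 3 passed the filter of a mean of at least 1 FPKM over the 6 libraries in both tables. Mpp3 and R3hdml, with control means under 1 FPKM, passed it through the mutant libraries, while Phlda2 had control means of 1.23 and 1.18 FPKM. Among 8758 genes with a control mean of at most 1 FPKM, leaving out predicted and small RNA genes, Mpp3 was at rank 3 and R3hdml at rank 4. Phlda2, with a control mean of 1.23 FPKM, lay just above that limit and came to rank 5 of 9164 genes when the limit was 1.5 FPKM, a value chosen after the data were seen. In these limited rankings the genes above them were Phlda3, at 8.02 FPKM in double mutants and 0.367 in controls, and the complement gene C3, at 20.7 and 0.871 FPKM. The next below were the ETS transcription factor gene Etv4, at 6.73 FPKM in double mutants and 0.851 in controls, Mgp, a matrix protein gene, at 6.11 and 0.0488, and Atg9b, an autophagy gene, at 3.44 and 0.165. With no limit on the control mean and no gene left out, Mpp3, R3hdml and Phlda2 were at ranks 108, 117 and 119 of 23951.

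The rule of choice did not use the Smad4 KO values, but it used the controls, and earlier results of these data were known. The test in the Smad4 KO table is therefore not independent of the choice. None of the 3 genes passed there. Mpp3 had a log2 difference of 1.79 (SE 0.27, limma adjusted p = 0.106), Phlda2 of 1.91 (SE 0.42, limma adjusted p = 0.13) and R3hdml of 1.99 (SE 0.50, limma adjusted p = 0.154). Each was higher in 3 of 3 Smad4 KO libraries than in all controls, and the exact two-sided permutation p was 0.1 for each, the smallest that 3 against 3 allows. Of 11849 genes tested with limma there, 4 passed, or 0.0338%, of which 1 was higher (0.00844%) and 3 were lower (0.0253%). The 3 genes all had an unadjusted limma p below 0.05, as did 19.1% of the genes tested, 9.76% being higher. Every Smad4 KO library lay above every control for 14.2% of the genes tested, and every double mutant library for 21.3% of 11762. A single fit of all 9 libraries takes part of its spread from the double mutant values that chose the genes, so its calls for them are no support. In it 3.81% of 11841 genes passed in Smad4 KO and 2.3% were higher. The limma adjusted p there was 0.0228 for Mpp3, 0.0381 for Phlda2 and 0.0503 for R3hdml.

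On a single scale set through the controls, the mutant groups could be put side by side, without a test because the double mutants entered the choice. Mpp3 had 8.62, 6.69 and 6.99 FPKM in double mutants against 5.97, 4.33 and 5.69 in Smad4 KO, so these libraries did not overlap (ratio of means 1.39). Phlda2 averaged 8.62 ± 1.74 FPKM in double mutants and 8.17 ± 5.61 in Smad4 KO (SD, n = 3 each), and the double mutants lay within the range of Smad4 KO. R3hdml averaged 4.82 ± 0.99 FPKM in double mutants and 5.1 ± 4.07 in Smad4 KO (SD, n = 3 each), again inside that range.

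Smad4 KO 0, where Phlda2 and R3hdml were highest, was the lowest of the 9 libraries for 6 of the 11 markers of crypt epithelium: Olfm4, Lgr5, Ascl2, Lyz1, Mmp7 and Cdx1. Olfm4, a crypt base marker, was at 738 to 1303 FPKM in double mutants, at 208, 859 and 982 in Smad4 KO 0, 1 and 2, and at 585 to 1435 in controls. Lgr5, the stem cell receptor gene, was at 13.5 to 20.7 FPKM in double mutants, at 2.64, 9.32 and 19.1 in Smad4 KO 0, 1 and 2, and at 6.04 to 8.43 in controls. Smoc2, another stem cell marker, was at 88.3 to 102 FPKM in double mutants, at 55.4, 91.3 and 97.4 in Smad4 KO 0, 1 and 2, and at 48.3 to 56.6 in controls, so Smad4 KO 0 lay within the controls. Vil1, a brush border gene, was at 502 FPKM in Smad4 KO 0, above the other mutant libraries but within the range of the controls, 369 to 681. Epcam, in the same list, went the other way: Smad4 KO 0 was the highest of the 9 libraries at 1037 FPKM. Controls had 685 to 959 FPKM of Epcam. Cdx2 (71.8 FPKM) and Mki67 (36.9 FPKM) were low but not lowest in Smad4 KO 0. All 11 markers of crypt epithelium reached 1 FPKM, and their summed level, mostly Lyz1, was 9227 to 16041 FPKM in double mutants, 4182 to 34535 in Smad4 KO and 10714 to 27691 in controls. The part of these differences in the levels of Phlda2 and R3hdml was not tested.

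Markers of stroma (9 genes, 6 of which reached 1 FPKM) summed to 4.74 to 55 FPKM in double mutants, 7.72 to 90.7 in Smad4 KO and 5.23 to 8.89 in controls. The sums above all controls were those of double mutant 0 (55) and Smad4 KO 0 (23.6) and 2 (90.7), and double mutant 0 and Smad4 KO 2 also led the 4 blood markers at 35.2 and 51.2 FPKM. All double mutant libraries lay above all controls for 3 of the 9 stromal genes, and all Smad4 KO libraries for 6 of 9. Over all genes tested, these shares were 21.3% and 14.2%. The stromal genes so separated were below 1 FPKM in every control, and some gaps were small. Lum had 0.0735 FPKM in Smad4 KO 1 and 0.0598 in control 2. The part of these markers in the levels of the 3 genes was not tested. Without double mutant 0 the ratios of means were 6.97 for Phlda2, 7.84 for Mpp3 and 13.8 for R3hdml, and without Smad4 KO 2 they were 8.71, 5.87 and 17.8. Markers of enteric neurons and glia (8 genes, of which Ret alone reached 1 FPKM) summed to 1.83 to 2.52 FPKM in double mutants, 2.05 to 3.07 in Smad4 KO and 0.922 to 1.79 in controls. Their mutant sums lay above the controls, and their part in the result was not tested. Sox10, which defines enteric glia, was listed at 0 in 8 of the 9 libraries. The 8 immune markers summed to 13.9 to 33.9 FPKM in double mutants, 14.6 to 80 in Smad4 KO and 29 to 69 in controls.

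The genes with the most similar course were found by the root mean square difference of log2(FPKM + 1), centred on the control mean, over the 9 libraries and 10804 genes. R3hdml was closest to Etv4 (difference 0.27). Etv4 had 7.62, 6.07 and 5.66 FPKM in double mutants 0, 1 and 2, 8.61, 1.64 and 5.04 in Smad4 KO, and 1.09, 0.666 and 0.696 in controls, with the same highest and lowest mutant libraries as R3hdml. Phlda2 was next (0.36), then Gdf15, a stress-induced secreted member of the TGF-beta superfamily (0.37), Mboat1, a lysophospholipid acyltransferase gene (0.40), and Psrc1, a spindle protein gene (0.40).

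Phlda2 was closest to R3hdml (0.36), then Mboat1 (0.40), Lrp8, a receptor gene of the LDL receptor family (0.43), Tnfrsf12a, the TWEAK receptor gene (0.43), and Mpp3 (0.45). Mpp3 was closest to Lrp8 (0.27), which had 5.1, 4.73 and 4.26 FPKM in double mutants, 5.62, 3.33 and 4.57 in Smad4 KO and 1.09, 0.369 and 0.559 in controls. The growth factor gene Pdgfa (0.35), Mboat1 (0.39) and the actin gene Acta1 (0.41) were at ranks 3, 4 and 5. From Mpp3, R3hdml was at rank 9 and Phlda2 at rank 10, both at 0.45. The 9 libraries share their 3 groups, so these differences describe likeness in change from the control mean only.

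**Figure D2:**
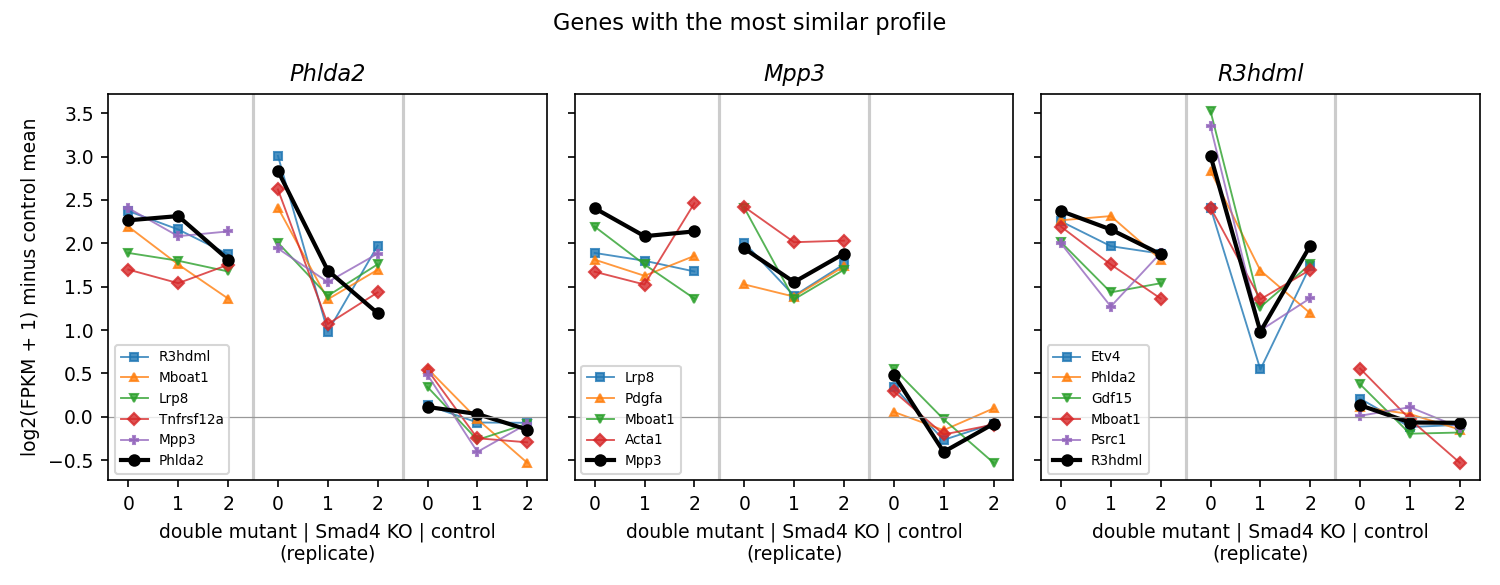
log2(FPKM + 1) minus the control mean in the 9 libraries (x axis, by group and replicate) for Phlda2, Mpp3 and R3hdml (thick black) and genes among the 5 nearest to each (coloured); lines only join libraries of a group and imply no order. Etv4 keeps within a root mean square difference of 0.27 of R3hdml, and Lrp8 within 0.27 of Mpp3.

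Of 67 tested genes related to the 3 by family, place or function, 5 rose and 7 fell in double mutants, where 9.39% of all genes tested rose and 9.09% fell. These lists were chosen with earlier results known. Both other PHLDA genes rose. Phlda3, a p53 target whose product competes with Akt for membrane lipids, had 9.05, 5.34 and 9.66 FPKM in double mutants against 0.255, 0.258 and 0.587 in controls (log2 difference 2.69, SE 0.24, limma adjusted p = 0.00694). Without double mutant 2 its limma adjusted p was 0.0511. Phlda3 had a control mean of 0.367 FPKM, so it passed the filter through the mutant libraries. It also stood above the 3 genes in the limited ranking by increase in double mutants, so its p-value there is no support. Phlda1 had 21.5, 17.4 and 22.1 FPKM in double mutants against 14, 7.67 and 6.74 in controls (log2 difference 1.08, SE 0.26, limma adjusted p = 0.0385), and passed, of 6 fits that left out a library, only in that without control 0 (0.0137 to 0.131). Phlda1 also did not pass without a filter, with sex as a covariate or with all 9 libraries in a single fit (limma adjusted p up to 0.0745). In Smad4 KO neither passed: Phlda3 was at 24.2, 5.44 and 4.82 FPKM against 0.247, 0.244 and 0.563 in controls (limma adjusted p = 0.122), and Phlda1 at 24.3, 11.5 and 27.4 FPKM against 13.6, 7.24 and 6.46 (0.222). Phlda3, like Phlda2, was highest in Smad4 KO 0.

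Of 18 MAGUK genes, 13 were tested in double mutants, and 0 rose and 2 fell by limma, with a median log2 difference of -0.22 against 0.00 for all genes. Over all genes tested, 9.39% rose and 9.09% fell. At an unadjusted limma p below 0.05 there were 6 of the 13, against 36.6% of all genes. Mpp1, which codes for the palmitoylated erythrocyte membrane protein p55, fell to 18.9 ± 4.9 FPKM in double mutants, against 79.1 ± 36 in controls (SD, n = 3 each; limma adjusted p = 0.0195). Dlg3, a synaptic and epithelial scaffold, fell to 23.3 ± 0.796 FPKM, against 43.2 ± 5.09 in controls (SD, n = 3 each; limma adjusted p = 0.0124). Neither passed without double mutant 0 or without double mutant 2, and Mpp1 did not with all 9 libraries in a single fit (limma adjusted p = 0.0868). Mpp2, the paralog of Mpp3 that lies close to it, stayed below 0.4 FPKM in every library and was not tested.

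Of 28 measured genes of cell polarity complexes and MAGUK partners, 18 were tested in double mutants, and 1 rose and 3 fell (median log2 difference -0.11). Over all genes tested, 9.39% rose and 9.09% fell. At an unadjusted limma p below 0.05 there were 9 of the 18, against 36.6% of all genes. Scrib, a basolateral polarity scaffold, rose to 26.9 ± 1.28 FPKM in double mutants, against 18.9 ± 1.62 in controls (SD, n = 3 each; limma adjusted p = 0.0243). Prkcz, an atypical protein kinase C of the apical complex, fell to 4.78 ± 0.772 FPKM, against 9.77 ± 1.43 in controls (SD, n = 3 each; limma adjusted p = 0.0179). Epb4.1l3, a membrane skeleton linker, fell to 31.1 ± 3.59 FPKM, against 80.7 ± 23.5 in controls (limma adjusted p = 0.0172), and Pard3b, a paralog of the polarity protein Par3, to 2.34 ± 0.478 against 4.33 ± 0.761 (SD, n = 3 each; limma adjusted p = 0.0423). Leaving out a library ended the call of Pard3b in 6 of 6 fits, of Scrib in all but that without control 0, of Prkcz without any double mutant, and of Epb4.1l3 without double mutant 0 or 2.

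Of 13 measured CAP superfamily genes, only Glipr1 and Glipr2 were tested, and neither passed, though Glipr1 had an unadjusted limma p below 0.05 in double mutants. Glipr1 had 4.74, 4.36 and 5.64 FPKM in double mutants against 3.57, 3.25 and 3.68 in controls (limma adjusted p = 0.0748). In Smad4 KO it had 26.2, 4.9 and 5.68 FPKM against 3.46, 3.07 and 3.53 in controls (limma adjusted p = 0.31), with Smad4 KO 0 far above the rest. Glipr2 was at 6.67 ± 1.19 FPKM in double mutants and 10.3 ± 3.11 in controls (SD, n = 3 each; limma adjusted p = 0.157).

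**Figure D3:**
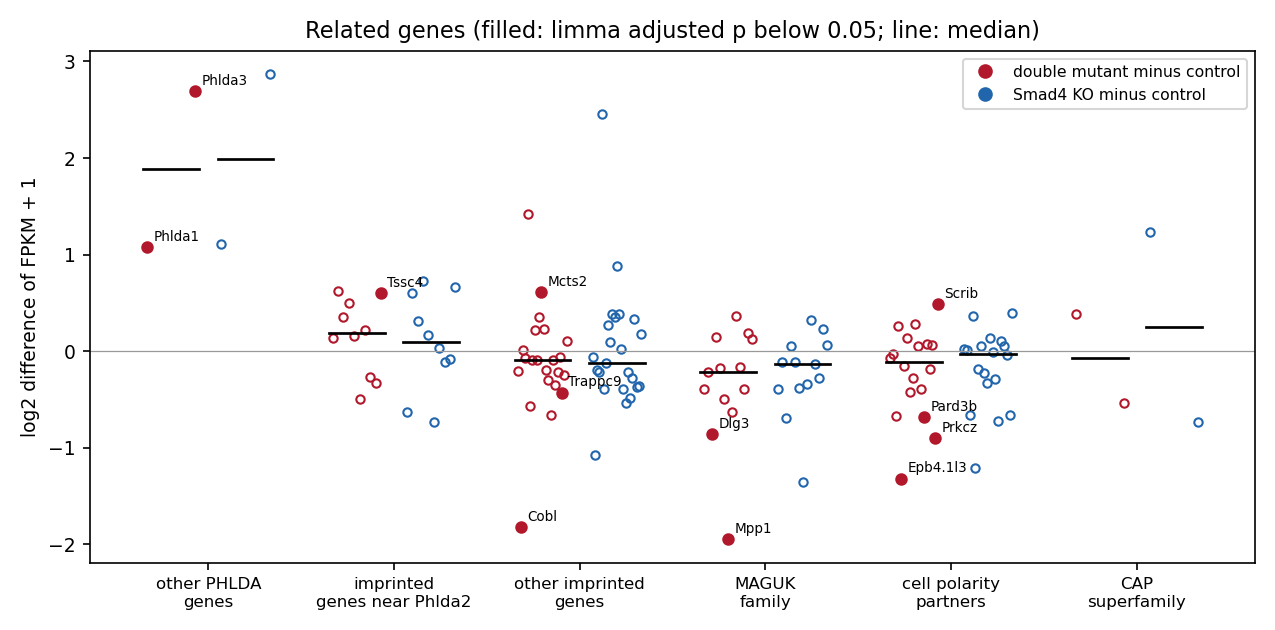
Differences in log2(FPKM + 1), double mutant (red) or Smad4 KO (blue) minus control, for tested genes of 6 related lists; filled and named points passed limma at an adjusted p below 0.05, open points did not, and black lines are list medians. Both other PHLDA genes lie above 1, while the medians of the other 5 lists lie between -0.22 and 0.25; no gene of these lists passed in Smad4 KO.

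Of 19 genes of the imprinted domain around Phlda2, 10 were tested in double mutants, and 1 rose and 0 fell by limma (median log2 difference 0.19), against 9.39% and 9.09% of all genes. At an unadjusted limma p below 0.05 there were 4 of the 10, against 36.6% of all genes. The gene that rose was Tssc4, at 32.1 ± 4.69 FPKM in double mutants and 20.6 ± 1.44 in controls (SD, n = 3 each; limma adjusted p = 0.0296), a call that held, of 6 fits that left out a library, in that without double mutant 1. Cdkn1c, a cyclin-dependent kinase inhibitor expressed, like Phlda2, from the maternal allele, had 2.36, 1.13 and 2.8 FPKM in double mutants against 1.15, 1.21 and 1.01 in controls (limma adjusted p = 0.193). In Smad4 KO it had 2.98, 1.85 and 2.6 FPKM against 1.12, 1.14 and 0.967 in controls (limma adjusted p = 0.158), without overlap. Slc22a18, the transporter gene beside Phlda2, was at 34.3 ± 4.34 FPKM in double mutants and 44.4 ± 14.1 in controls, and Nap1l4, the histone chaperone gene on the other side, at 63.8 ± 4.75 and 54.7 ± 5.05 (SD, n = 3 each; limma adjusted p = 0.337 and 0.195). Cars, a cysteinyl-tRNA synthetase gene, was at 26.7 ± 3.91 FPKM in double mutants and 17.3 ± 5.03 in controls (SD, n = 3 each; limma adjusted p = 0.0934).

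Among 46 imprinted genes elsewhere, 22 were tested in double mutants, of which 1 rose and 2 fell (median log2 difference -0.09). Over all genes tested, 9.39% rose and 9.09% fell. At an unadjusted limma p below 0.05 there were 4 of the 22, against 36.6% of all genes. Mcts2 rose to 19 ± 2.55 FPKM in double mutants, against 12.1 ± 1.72 in controls (SD, n = 3 each; limma adjusted p = 0.0371). Cobl, an actin nucleator of the brush border, fell to 7.46 ± 0.308 FPKM, against 29.7 ± 8.49 in controls (SD, n = 3 each; limma adjusted p = 0.0102), and Trappc9 to 8.06 ± 0.955 against 11.1 ± 0.739 (limma adjusted p = 0.0451). Neither Mcts2 nor Trappc9 passed in any fit that left out a library, while Cobl passed in 5 of 6, missing without double mutant 2 (limma adjusted p = 0.0614). Dcn, an imprinted gene that is also a marker of stroma, had the largest increase of the list in both groups without passing, with 27.2 FPKM in double mutant 0 and 47.8 in Smad4 KO 2, the libraries high in stromal markers. Of the 68 genes of all 6 lists tested in the Smad4 KO group, 0 passed limma, against 0.0338% of all genes, and 18 had an unadjusted p below 0.05, against 19.1% of all genes.

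R3hdml lies beside Hnf4a, the gene of an intestinal nuclear receptor, on chromosome 2. In the GRCm38 annotation it overlaps Hnf4aos, the antisense transcript of Hnf4a, and the library kit does not mark strand, so reads from shared positions cannot be assigned. Hnf4aos had 0.547, 0.608 and 0.329 FPKM in double mutants against 1.38, 2.01 and 4.55 in controls (limma adjusted p = 0.0534), the opposite order to R3hdml. In Smad4 KO it had 1.73, 0.665 and 0.363 FPKM against 1.34, 1.9 and 4.36 in controls (limma adjusted p = 0.317). Hnf4a was at 247 ± 46.1 FPKM in double mutants and 271 ± 36 in controls (SD, n = 3 each; limma adjusted p = 0.602). On the other side Fitm2, a lipid droplet gene, was at 9.61 ± 0.367 FPKM in double mutants and 8.25 ± 1.04 in controls (SD, n = 3 each; limma adjusted p = 0.228).

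Around Mpp3 on chromosome 11, where no annotated gene overlapped it, Dusp3 alone among the 6 nearest measured genes reached the mean of 1 FPKM needed for a test. Dusp3, a dual-specificity phosphatase gene, had 4, 3.41 and 3.19 FPKM in double mutants against 2.78, 1.97 and 1.47 in controls (limma adjusted p = 0.0806), and 4.81, 3.25 and 3.87 in Smad4 KO against 2.69, 1.86 and 1.41 (limma adjusted p = 0.176). Both mutant groups lay above the controls without passing. Sost and Ppy were listed at 0 in every library, and Cd300lg at no more than 0.03 FPKM.

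**Figure D4:**
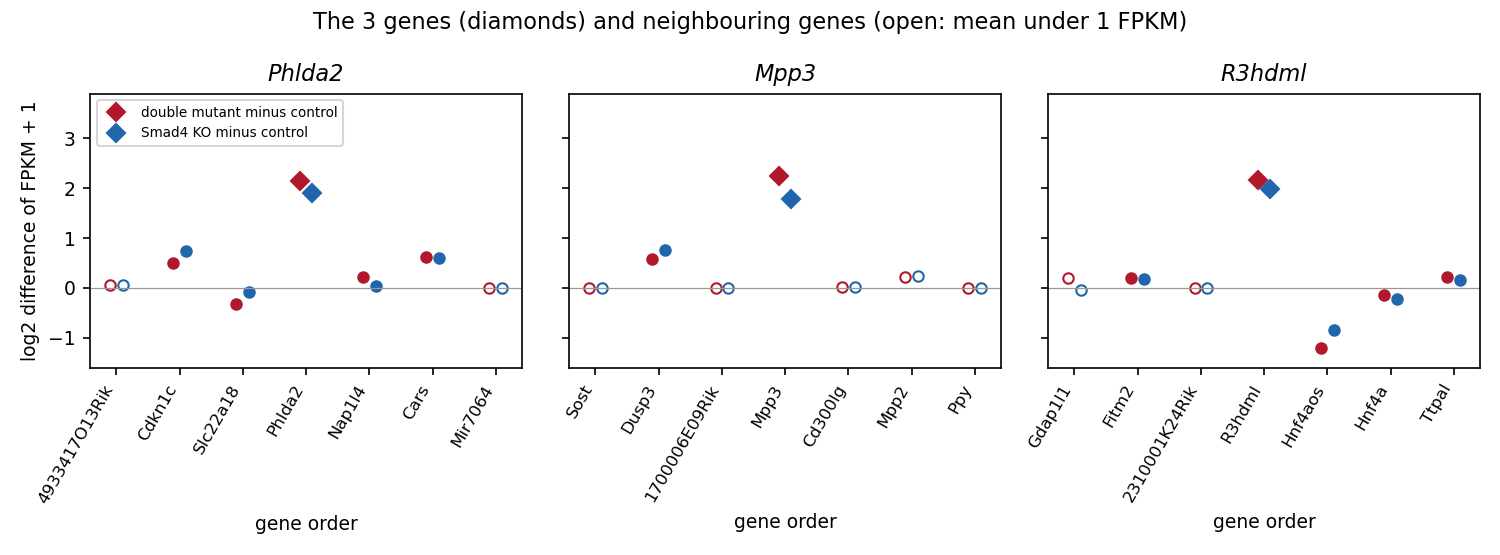
Differences in log2(FPKM + 1), double mutant (red) or Smad4 KO (blue) minus control, for Phlda2, Mpp3 and R3hdml (diamonds) and the 3 nearest measured genes on each side in annotation order (circles). Annotated entries without expression values were passed over. Open circles have a mean under 1 FPKM and were not tested. The 3 genes lie between 1.79 and 2.24, every neighbour below 1, and Hnf4aos is the lowest at -1.20 in double mutants.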

How the data were processed

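RNA from jejunal crypts was sequenced after library preparation with an Illumina TruSeq kit, per the labels' protocols. The authors deposited FPKM values in 2 tables, each normalized on its own. Per the submitters' processing notes, build mm9 was used with TopHat2 2.1.1, Cuffdiff 2.2.1 and Cuffnorm 2.2.1; no source used here names the annotation. On log2(FPKM + 1), limma (version 3.58.1, R 4.3.3) was run separately in each table with a mean-variance trend, keeping genes that averaged 1 FPKM or more across the 6 libraries. P-values were two-sided, adjusted by the Benjamini-Hochberg method over all genes tested, and called below 0.05. For levels across tables, double mutant values were divided by the mean factor between the controls. The fit was tested on simulated data, with changes put only into genes with a mean log2(FPKM + 1) above 3. It recovered 56% of 2-fold and 86% of 4-fold changes in Smad4 KO, with 9 false calls. In double mutants it recovered 62% and 95%, with 4 false calls. This does not cover genes with control levels as low as those of Phlda2, Mpp3 and R3hdml. The genes and lists were chosen with earlier results of these data known. Named genes were the members, called genes of the lists (at most 4 a list), 3 measured neighbours a side, 5 nearest profiles, and the next 3 genes in the ranking. A gene of the nearest profiles and a marker gene are not reported here. Genes named beyond these were chosen after their values were seen. Alternatives varied the pseudocount, scaling, filter, trend, replicate block, sex and libraries. Sex was inferred from Xist and Y-linked transcripts. For libraries 0, 1 and 2 it was female, male and female in double mutants and male, female and female in Smad4 KO. In controls it was male, male and female.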

Additional observations from a re-analysis of the deposited data

How the results depend on the processing

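All differences of Phlda2, Mpp3 and R3hdml kept their direction under the alternatives run. With a pseudocount of 0.1 FPKM the double mutant differences were 2.76, 3.13 and 3.60 for Phlda2, Mpp3 and R3hdml, and with 5 FPKM they were 1.16, 1.11 and 0.91; scaling and leaving out libraries moved them by less than the spread between replicates. In Smad4 KO, leaving out each library gave 1.44 to 2.26 for Phlda2, 1.59 to 2.03 for Mpp3 and 1.48 to 2.49 for R3hdml, with limma adjusted p from 0.114 to 0.363. The fit of all 9 libraries gave the same 1.91 for Phlda2 and 1.79 for Mpp3, past the threshold, but its spread comes in part from the double mutant and control values that chose the genes, so this is no support. At a mean of at least 5 FPKM none of the 3 remained in the Smad4 KO table, so there is no value. With the replicate number as a block, the limma adjusted p was 0.288 for each of the 3 in Smad4 KO. Whether same-numbered libraries were paired is not known. Their deviations correlated at -0.111, 0.223 and -0.0987 in Smad4 KO and 0.072, 0.132 and 0.0374 in double mutants. Every library correlated best with its own number in double mutants only. Smad4 KO 0 correlated best with control 2 (0.211) and Smad4 KO 2 with control 0 (0.198), which the block did not join. The block gave 732 higher genes in double mutants (main 1104), and 0 higher and 1 lower in Smad4 KO (main 1 and 3). Genes lower in double mutants numbered 621 without a filter (main 1069). Genes higher in Smad4 KO numbered 3 and 0 with pseudocounts of 0.1 and 5 FPKM, 2 with median-of-ratios factors, 4 with quantile normalization, 2 at a mean of at least 5 FPKM and 0 with sex as a covariate, and the fit of all 9 libraries gave 272 higher and 179 lower. Leaving out a library gave 18 to 688 higher and 12 to 898 lower in double mutants, and 2 to 8 higher and 3 to 8 lower in Smad4 KO. In the 6 related lists together, 5 genes rose in double mutants (3 with sex as a covariate, 0 to 4 leaving out a library) and 7 fell (0 to 6), and the fit of all 9 libraries gave 2 higher and 2 lower in Smad4 KO. The cause of these shifts was not tested. FPKM gives no counting error for the low control values.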
